A study of Oryza sativa with 7 samples.

Results

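The 4 libraries described here, of 7 in the series, set leaf against developing seed of rice (Oryza sativa), cultivar Ilmi. They are leaf 1 and leaf 2, taken at 14 days, and seed 1 and seed 2, taken 20 to 30 days after pollination at the ripening stage, for which the sample names give 21. Each library's tissue was taken from its label. Root at 14 days (1 library) and flowers from panicles of 0.5 to 1.5 cm (2 libraries) entered the same model and are quoted beside some values. No treatment is given and all plants share the cultivar. Whether the replicates are separate plants, and how many plants were pooled, is not stated in the labels. The p-values therefore cover no more than the variation among these libraries, and that may be technical.

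A leaf is a source tissue: it fixes carbon in chloroplasts and exports sucrose through the phloem. A cereal seed in grain filling is a storage tissue, which imports that sucrose and lays down starch and storage proteins in the endosperm while the embryo matures. By its title, the series is about alternative splicing across the 4 tissues. The deposited tables name each locus by an ID only. An exact search of the RefSeq gene table for assembly ASM3414082v1 found 1 of the 37858 IDs, so loci are given by ID, with no gene name or role, and the tissue labels were not checked against marker genes.

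Counts over exon bins, the stretches into which a gene's annotated exons are divided, came to 22218323 in leaf 1, 49312943 in leaf 2, 17866682 in seed 1 and 11989260 in seed 2. The leaf libraries together held 71531266 counts and the seed libraries 29855942, so a locus with no count is bounded more tightly in leaf. A limit of 3 counts over both libraries of a tissue corresponds to 0.0535 CPM (counts scaled to the library size after TMM normalization) in leaf and 0.116 CPM in seed. A read over several bins is counted in each, so a locus's count is not its number of reads. In bulk tissue, fewer cells of a type and less RNA per cell cannot be told apart.

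Counts were concentrated in fewer loci in seed than in leaf, most of all in seed 2. The number of loci that together made up 50% of all locus counts was 229 in seed 2 and 732 in seed 1, against 788 in leaf 2 and 900 in leaf 1. It was 1287 in root, and 1620 and 1781 in the panicle libraries. The seed libraries differed from each other here more than seed 1 differed from leaf 2. The 100 most abundant loci of each library took 30.8% in seed 1 and 43.9% in seed 2, and 23.2% and 26.7% in leaf 1 and leaf 2. With each locus's count divided by its number of bins, 50% of counts lay in 168 loci in seed 1 and 23 in seed 2, against 880 and 634 in leaf. With 2 libraries against 2 no test was run, and this is a description of each library.

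**Figure D1:**
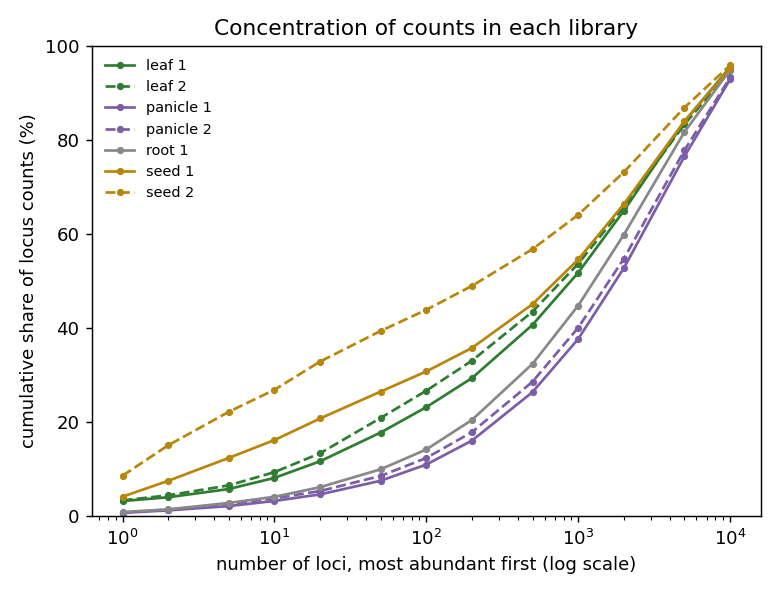
Cumulative share of locus counts (percent) against the number of loci, most abundant first (log scale), for the 7 libraries, solid for replicate 1 and dashed for replicate 2. Seed 2 rises fastest, reaching 43.9% at 100 loci, and the panicle libraries rise slowest.

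Levels differed between leaf and seed at 29.3% of the 26784 loci tested (edgeR's quasi-likelihood test, at least 2-fold with a p under 0.05 after Benjamini-Hochberg adjustment). The share called higher in leaf was 18.1% (4850 loci) and higher in seed 11.2% (3008 loci). These counts rest on both leaf libraries: without leaf 1 they were 2351 and 766, and without leaf 2 1770 and 659. Without seed 1, and without seed 2, both counts were larger. Libraries of both tissues did not overlap at any of the 4850 leaf loci and at 3007 of the 3008 seed loci. They also did not overlap at 10035 of the 18926 loci that were not called. The 4850 loci held 51.6% and 55.9% of counts in leaf and 7.69% and 5.20% in seed. The 3008 loci held 40.6% and 56.1% in seed and 3.32% and 3.04% in leaf. Since the same libraries chose these loci, the shares describe their size only.

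**Figure D2:**
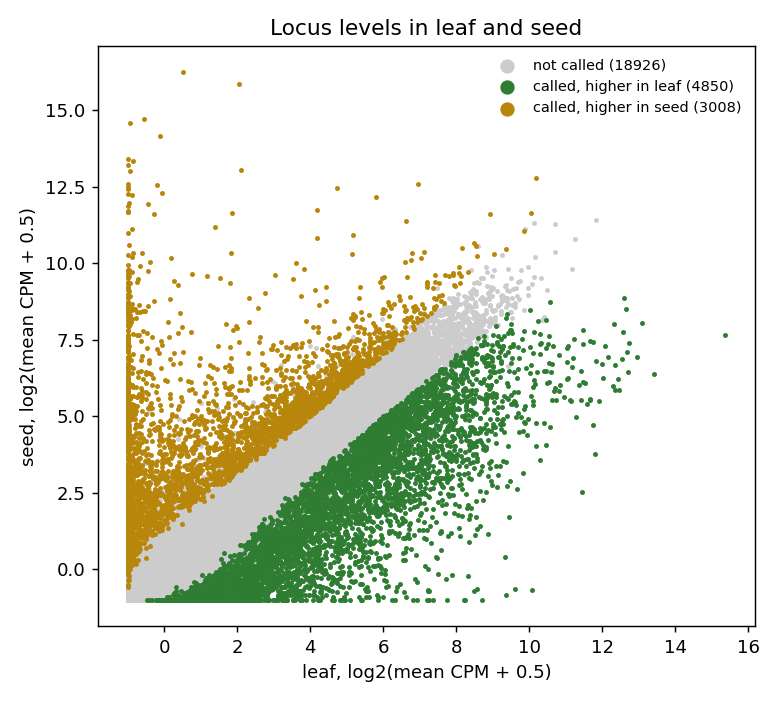
Mean level of each tested locus in leaf (x axis) and seed (y axis), both as log2(CPM + 0.5), coloured by call. The 3008 loci called higher in seed include a column of points at the lowest leaf level, where leaf had no count.

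More loci were higher in leaf, but most of the very large differences went towards seed. At 8-fold or more there were 2330 called loci towards leaf and 1463 towards seed, with loci of no count in 1 tissue placed at their lower bound. At 32-fold the order turned, with 682 towards leaf and 819 towards seed. At 128-fold there were 137 and 459, and at 512-fold 37 and 250. Among called loci with counts in both tissues, 110 towards leaf and 264 towards seed reached 128-fold. By the fitted fold changes, which rest on a small added count where a tissue has none, 363 and 615 reached it. Seed also led in the fitted numbers without leaf 1, leaf 2 or seed 2. Without seed 1 leaf led, so the order of the fitted numbers rests on seed 1. The numbers at the lower bound and those with counts in both tissues were not recomputed without a library. The deeper leaf libraries give a lower limit of detection, and the part of depth in this pattern was not tested.

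**Figure D3:**
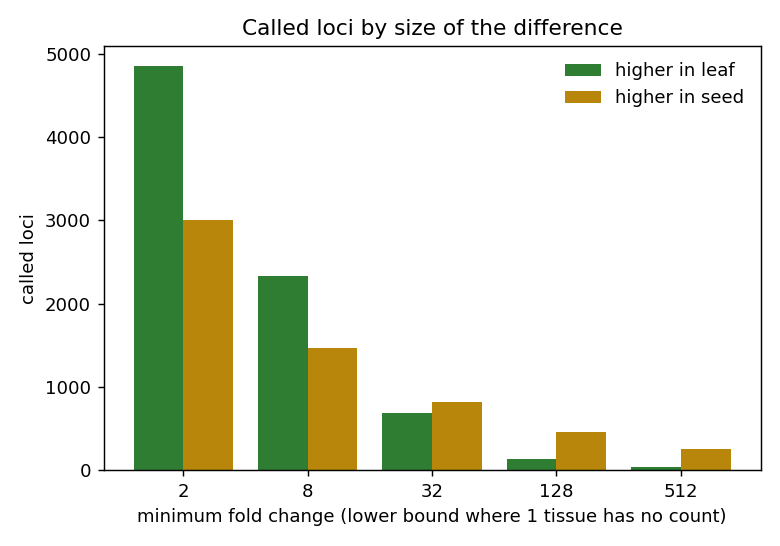
Number of called loci (y axis) whose fold change is at least the value on the x axis, towards leaf (green) and towards seed (gold), with loci of no count in 1 tissue at their lower bound. Leaf leads at 2-fold and 8-fold, and seed leads from 32-fold upwards.

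Absence from one tissue was seen in both directions. Of the loci called higher in seed, 379 had no count in either leaf library. Of those called higher in leaf, 290 had no count in either seed library. Of the 18926 loci not called, 624 had no count in either leaf library and 809 none in either seed library. The seed loci had a median of 21.1 CPM in seed and 1.63 CPM in leaf, and their medians in root (3.29 CPM) and panicle (3.91 CPM) lay closer to leaf. The leaf loci had a median of 30.5 CPM in leaf and 3.89 CPM in seed, with 5.88 CPM in root and 6.67 CPM in panicle. Seed was the highest of the 4 tissues at 2339 of the 3008 seed loci (77.8%), with root highest at 318 and panicle at 351. Leaf was the highest at 3311 of the 4850 leaf loci (68.3%), with root highest at 767 and panicle at 772. A call between leaf and seed thus took in loci whose highest level lay in root or panicle.

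At a mean of 1000 CPM or more in the higher tissue there were 95 leaf loci and 60 seed loci. The 95 took 21.9% and 25.6% of counts in leaf and 1.18% and 0.685% in seed. The 60 took 26.4% and 39.6% in seed and 0.604% and 0.530% in leaf. The median absolute log2 fold change by the fit was 12.5 for the 60 seed loci and 4.81 for the 95 leaf loci. Loci of a single exon bin were 16 of the 60 (26.7%) and 5 of the 95 (5.26%). Among all called loci they were 15% towards seed and 20.2% towards leaf, and 22.9% of the loci not called. Counts are summed over bins, which weighs on loci of few bins, and no test was made of these shares.

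The seed libraries were less alike than the leaf libraries, at these loci and at the loci not called. Seed 2 exceeded seed 1 at 37 of the 60 abundant seed loci, with a median log2 difference of 0.464 and a largest absolute difference of 3.60. Leaf 2 exceeded leaf 1 at 60 of the 95 abundant leaf loci, with a median of 0.144 and a largest absolute difference of 2.04. Over all loci called towards seed the median absolute log2 difference was 0.606 between the seed libraries and 0.194 between the leaf libraries. Over those called towards leaf it was 0.493 between the seed libraries and 0.360 between the leaf libraries. Over the 18926 loci not called it was 0.519 and 0.296. These differences used log2(CPM + 0.5), which narrows them at low levels.

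The loci with the largest fold change per direction, among called loci with a mean of 100 CPM or more and no overlap, show how complete the separation can be. Os07g0206500, a locus of 1 bin, had 6978 CPM in seed 1 and 14780 CPM in seed 2, no count in leaf 1 or leaf 2, and 0.648 CPM in root. It was at least 203200-fold higher in seed (edgeR, adjusted p = 0.00109). Os12g0269600 had 7134 CPM in seed 1 and 11910 CPM in seed 2 and no count in either leaf library, at least 177800-fold higher in seed (edgeR, adjusted p = 0.000961). Both seed libraries were high at both loci, and seed 2 was the higher.

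Towards leaf, Os03g0658800 had 427.3 CPM in leaf 1 and 406.2 CPM in leaf 2 and no count in either seed library, at least 3584-fold higher (edgeR, adjusted p = 0.000927). Os03g0843800 had 319.5 CPM and 277.3 CPM in the leaf libraries and no count in the other 5 libraries, root and panicle included. It was at least 2566-fold higher in leaf than in seed (edgeR, adjusted p = 0.000928). These bounds set the mean level against 3 counts over both libraries of the lower tissue, and they cover counting error only.

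Exon usage, meaning how a locus's counts are divided among its bins, was called at 29 of 18512 loci, 0.157% (edgeR's diffSpliceDGE, Simes p per locus, Benjamini-Hochberg adjusted). In these loci 28 bins took a larger share in leaf, 0.0238% of the bins tested, and 15 in seed, 0.0127%. Of the 29 loci, 13 were called higher in seed for level, 7 higher in leaf, and 9 were not called. Over all 26784 loci tested for level, 11.2% were called higher in seed and 18.1% higher in leaf. The shares among the 18512 loci tested for usage were not computed, so no excess is read from these numbers. Both kinds of call use the same bin counts and are not independent. Most of the 29 loci were no longer called when any 1 leaf or seed library was left out. First or last bins were 16 of the 43 called bins (37.2%), against 28.1% of bins tested. In 8 of the 29 loci 2 or more bins were called, and in 1 of these they went in opposite directions.

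That locus was Os08g0345800, where bin 14 in leaf gave way to bin 15 in seed. In leaf 1 and leaf 2, bin 14 of 15 held 35.3% and 27.2% of all counts of this locus, against 0.464% and 0.382% in seed 1 and seed 2, a log2 change in usage of 6.13 (edgeR, adjusted p = 6.54e-05). Bin 15, the last, held 0.575% and 0.344% in leaf and 35.5% and 33.4% in seed, a log2 change of -6.30 (edgeR, adjusted p = 0.000394). The libraries of both tissues were far apart at each bin, and no overlap between them was a condition for naming a bin. Bins 12 and 13, next to them, kept close shares in leaf and seed. Bin 13 held 43.3% and 43.8% in leaf and 48.4% and 45.2% in seed. Bin 12 held 15.95% and 18% in leaf and 14.5% and 15.8% in seed, but 22.4% and 20.5% in panicle. Panicle had the leaf pattern, with 16.8% and 23.6% in bin 14 and 0.0971% and 0% in bin 15. Root had 26.7% in bin 14 and 9.72% in bin 15. The level of the whole locus was higher in seed (log2 fold change, leaf minus seed, -3.13, edgeR adjusted p = 0.00227). The call of bin 15 was lost without leaf 1 (edgeR, adjusted p = 0.0575) and without leaf 2 (adjusted p = 0.126), while that of bin 14 was kept without any 1 of the 4 libraries.

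**Figure D4:**
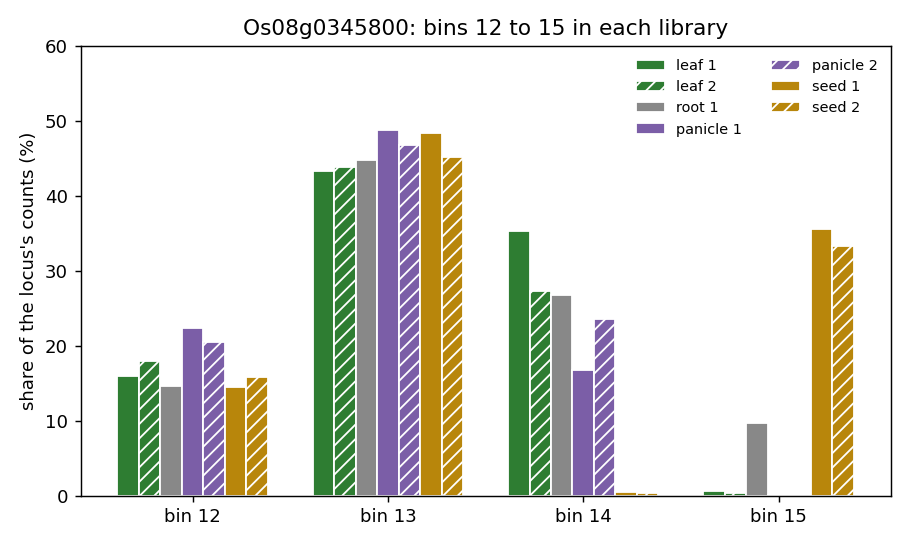
Share of the counts of Os08g0345800 (percent) in bins 12 to 15, 1 bar per library, hatched for replicate 2. Bin 14 is near 0 in both seed libraries and bin 15 is near 0 in leaf and panicle. Bin 13 is alike in all 7 libraries, and bin 12 is highest in the panicle libraries.

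Bins were named among called bins with no overlap between leaf and seed libraries, in loci of 200 or more counts in each such library. Outside Os08g0345800, those with the largest difference were bin 24 of Os02g0280400 towards leaf and bin 1 of Os01g0197400 towards seed. The last bin of Os02g0280400, bin 24, held 30.6% and 60.5% in the leaf libraries and 3.86% and 5.57% in seed, a log2 change in usage of 3.40 (edgeR, adjusted p = 1.05e-06). The leaf libraries differed widely, and both lay above every other library, of which the highest was seed 2. Without leaf 2 the change was 2.70 and the bin's own adjusted p 0.0199 (edgeR), but the test of the locus no longer passed. Bin 1 of 5 of Os01g0197400 held 3.74% and 2.54% in leaf and 28.2% and 28.0% in seed, a log2 change of -3.23 (edgeR, adjusted p = 0.0389). Bin 5, at the other end of this locus, held 45.5% and 40.1% in leaf and 16.2% and 18.7% in seed. Root and panicle lay with leaf at bin 1, at 2.44% or less. This call was lost without leaf 2 (edgeR, adjusted p = 0.4), seed 1 (0.206) or seed 2 (0.205), and with only the leaf and seed libraries in the model (0.199). By level, Os02g0280400 was called higher in leaf (log2 fold change, leaf minus seed, 1.22, edgeR adjusted p = 0.0259). Os01g0197400 was called higher in seed (-2.90, edgeR adjusted p = 0.00319). The counts of the named bins are part of these levels. Bin counts do not record which junctions the reads span, so splicing and a shifted transcript start or end cannot be told apart.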

How the data were processed

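Whole-number counts per exon bin were deposited, 1 table per library, not normalized. The TruSeq RNA kit served for mRNA purification, per the labels' protocols. Named without roles in the submitters' processing notes are HTSeq, Cufflinks, SAMtools 1.2, Bowtie2, TopHat2 2.0.4, bcl2fastq 1.8.4 and the build IRGSP-1.0. The strand setting is not given in the sources used here, so reads of overlapping or antisense loci cannot be told apart, and reads of near-identical copies may be split. The rows that name no gene, 12.2% to 15.8% of counts in a library, were left out.

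Bin counts were summed per locus and filtered with filterByExpr (minimum count 10). Levels were tested in R 4.3.3 with edgeR 4.0.16 (TMM, glmQLFTest), fitting 1 mean per tissue over the 7 libraries, which leaves 3 residual degrees of freedom. Usage was tested with diffSpliceDGE in loci of 2 or more kept bins, and its changes were converted to log2. The level and usage fits, as written again for the alternatives, were run on simulated counts, and the outcome is not given here. On the real counts they gave the same 7858 loci for level and 29 for usage. Alternatives used DESeq2 1.42.0 and limma 3.58.1 among others. Named loci and bins are the 2 per direction with the largest fold change, or difference in share, under the conditions given. For bins these were 200 or more counts per locus and no overlap between leaf and seed libraries. The comparison and the rules were chosen with earlier results of these data known. Planned gene lists and marker lists rested on recalled roles of locus IDs that no source used here pairs with names, and they were not run.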

Additional observations from a re-analysis of the deposited data

How the results depend on the processing

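The number of loci called for level lay within 1.5 times the 7858 reported with DESeq2, RLE factors, no filter on low counts, each locus's largest bin, only leaf and seed libraries, no fold minimum, a 4-fold minimum and without the 100 most abundant loci. The share of called loci towards leaf, 61.7% as reported, ran from 55.9% (largest bin) to 64.5% (4-fold minimum) over these. It was 56.1% with only leaf and seed libraries. Leaving out 1 library gave 2429 to 8894 called loci, 1770 to 5529 towards leaf, 659 to 3365 towards seed and 60.8% to 75.4% towards leaf; the low counts are those without a leaf library, which leaves 1 leaf library that is assumed to vary like the other groups. At a 4-fold minimum 1996 loci were higher in seed. Usage calls with 1 library left out ran from 8 to 21 loci, 9 to 24 bins towards leaf and 1 to 12 towards seed. Voom with diffSplice called 44 loci, 25 of them among the 29, with 45 and 30 bins. The F test called 44 loci, 21 of them among the 29, with 8 bins towards seed. Os01g0197400 was not called with voom (adjusted p = 0.072). The cause of these changes was not tested. With counts divided by the number of bins, the 100 most abundant loci held 29.5% in leaf 2, 46.7% in seed 1 and 62.6% in seed 2, and 50% of counts lay in 168 loci in seed 1 and 23 in seed 2. Leaf and seed libraries share only a number, not a stated pairing: the deviations of leaf 1 and seed 1 from their tissue means correlated at 0.22 across loci. With the replicate number as a block, on leaf and seed libraries only, 8140 loci were called for level (4693 and 3447, 57.7% towards leaf). For usage 24 were called, with 28 and 14 bins. Without the block, these libraries gave 7047 for level and 21 for usage. Os01g0197400 was not called with it (edgeR, adjusted p = 0.45) or without it (0.199). DESeq2 called 231 loci of 128-fold or more towards leaf, an alternative chosen after seeing the data. Depth limits loci with no count, more so in seed than in leaf.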
